A study of Mus musculus with 2 samples.

Results

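The 9 genes described here encode enzymes, and 1 helper protein of such an enzyme, that make small inflammatory mediators: nitric oxide (Nos2), itaconate (Acod1), and the prostaglandins and leukotrienes known together as eicosanoids (Pla2g4a, Ptgs1, Ptgs2, Ptges, Alox5, Alox5ap and Lta4h). They were given by name and matched to the deposited gene identifiers through the GENCODE annotation of GRCm38. All 9 of the 9 symbols were found among 52636 Ensembl genes, and all 9 had at least 10 reads over both libraries.

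The samples were 2 liver RNA libraries, 1 from Gbp5 knockout mice (KO, genotype GBP5-/-) and 1 from wild-type mice (WT), both on the C57BL/6 background. The product of Gbp5 is a GTPase of the guanylate-binding protein family, which interferon induces. The mice of both genotypes were 9 weeks old and had received D-galactosamine (GalN, 800 µg per g body weight) with lipopolysaccharide (LPS, 100 ng per g) 6 h earlier. LPS is a bacterial endotoxin, and GalN depletes uridine nucleotides in hepatocytes and so sensitises the liver to it. Each library was made from RNA pooled from 4 livers, so there is 1 library per genotype and no replicate. No p-value can be given, the intervals below are 95% counting intervals that compare these libraries and not the genotypes, and no library of an untreated liver was analysed here.

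The KO library held 15750875 reads in genes and the WT library 19864848, so a count of 0 allowed up to 0.190 CPM (read counts scaled to library size) in KO and 0.151 CPM in WT. Gbp5 itself had 873 reads in KO and 3211 in WT, 2.92-fold lower in KO. Reads of Gbp5 thus remained in KO, and other genes were also past 2-fold, so this drop alone does not check the genotype. Of 16683 genes with 10 or more reads over both libraries, 13.3% were at least 2-fold lower in KO and 6.86% at least 2-fold higher. In pooled whole liver, fewer cells of a type and less RNA per cell cannot be told apart.

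Nitric oxide synthase 2 makes nitric oxide from arginine and is induced in macrophages, and also in hepatocytes, by endotoxin and cytokines. Aconitate decarboxylase 1, the product of Acod1, is induced in activated myeloid cells, where it turns cis-aconitate of the citric acid cycle into itaconate, which inhibits succinate dehydrogenase and restrains inflammatory gene expression. Eicosanoids start from arachidonic acid freed from membranes by cytosolic phospholipase A2. Cyclooxygenases lead from there to prostaglandins, and 5-lipoxygenase leads to leukotrienes.

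Promoter sequence is shown for the members with the clearest differences that the RefSeq promoter table (GRCm38.p6) holds, with 3 lower in KO, Acod1, Ptgs2 and Ptges, and 1 higher, Lta4h. The table held 7 of the 9 members; Nos2 and Alox5ap were not matched. Each window runs 5′ to 3′ on the strand of the gene from 250 bases before the start that this table gives to 50 bases after it. The Ptges window lies inside the GENCODE span of that gene and not at its outer start, 30929863. Capitals mark matches, on either strand, to any of 8 letter patterns of inflammatory or core promoter elements, namely kappaB (GGANNTTCC), C/EBP (TTGCGCAA), AP-1 (TGANTCA), the core of the cyclic AMP response element (ACGTCA), the interferon-stimulated response element (GAAANNGAA), the gamma-activated sequence (TTCNNNGAA), the TATA box (TATAAA) and the E-box (CACGTG).
Acod1, chr14:103046762-103047061, plus strand: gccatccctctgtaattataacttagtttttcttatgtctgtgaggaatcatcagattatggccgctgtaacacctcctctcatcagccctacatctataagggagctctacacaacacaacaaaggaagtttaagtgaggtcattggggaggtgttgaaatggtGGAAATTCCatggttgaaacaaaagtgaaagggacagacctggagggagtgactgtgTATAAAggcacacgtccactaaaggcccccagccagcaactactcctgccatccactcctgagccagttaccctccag
Ptgs2, chr1:150099781-150100080, plus strand: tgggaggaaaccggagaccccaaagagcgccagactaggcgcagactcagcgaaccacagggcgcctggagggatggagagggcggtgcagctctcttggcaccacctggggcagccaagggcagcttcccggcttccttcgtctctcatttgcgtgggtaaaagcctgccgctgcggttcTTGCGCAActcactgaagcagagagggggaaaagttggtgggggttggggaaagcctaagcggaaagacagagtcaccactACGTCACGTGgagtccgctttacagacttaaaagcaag
Ptges, chr2:30903248-30903547, minus strand: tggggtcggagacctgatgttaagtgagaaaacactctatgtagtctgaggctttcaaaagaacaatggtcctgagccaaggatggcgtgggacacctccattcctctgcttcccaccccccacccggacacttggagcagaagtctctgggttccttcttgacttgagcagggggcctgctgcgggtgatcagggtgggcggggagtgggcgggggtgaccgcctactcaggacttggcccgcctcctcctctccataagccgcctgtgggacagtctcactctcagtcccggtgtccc
Lta4h, chr10:93453146-93453445, plus strand: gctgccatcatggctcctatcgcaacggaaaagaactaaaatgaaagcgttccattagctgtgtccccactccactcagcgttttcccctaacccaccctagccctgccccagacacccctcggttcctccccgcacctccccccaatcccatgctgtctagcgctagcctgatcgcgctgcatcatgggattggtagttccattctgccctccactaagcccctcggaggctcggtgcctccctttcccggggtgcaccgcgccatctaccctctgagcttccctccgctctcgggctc

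The Ptgs2 window held the palindromic C/EBP letters at -69 to -62, which occur in 0.183% of the 32851 windows in the table. It also held the cyclic AMP response element core at 13 to 18 (in 7.51% of windows) and an E-box at 17 to 22 (in 7.15%), which share bases. The Acod1 window had TATA letters at -28 to -23, as did 13.6% of windows at any position. The same window had kappaB letters at -85 to -77, which 4.26% of windows hold. The Ptges and Lta4h windows held none of the patterns, and none of the 4 windows held the AP-1, interferon-stimulated or gamma-activated letters, found in 7.81%, 8.56% and 8.30% of windows. The letters were chosen after the sequences had been seen, so these shares cannot show that a match is unusual. A match is a description of letters and not of a bound site.

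Among the 9 genes, 3 were at least 2-fold lower in KO, namely Nos2, Ptges and Acod1, or 33.3% of the members against the 13.3% of all measured genes. None was at least 2-fold higher, against 6.86% of all measured genes. Ratios ranged from 0.3495 to 1.44, with a median of 0.649 for the 9 members and of 0.960 for all measured genes. With 9 genes, 1 member moves the share by a wide margin, and the median is that of Alox5ap. With 1 added to each level in FPKM (reads scaled to transcript length and library size), a scale that shrinks differences of low genes, Nos2 at a ratio of 0.510 and Ptges at 0.603 were short of 2-fold.

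**Figure D1:**
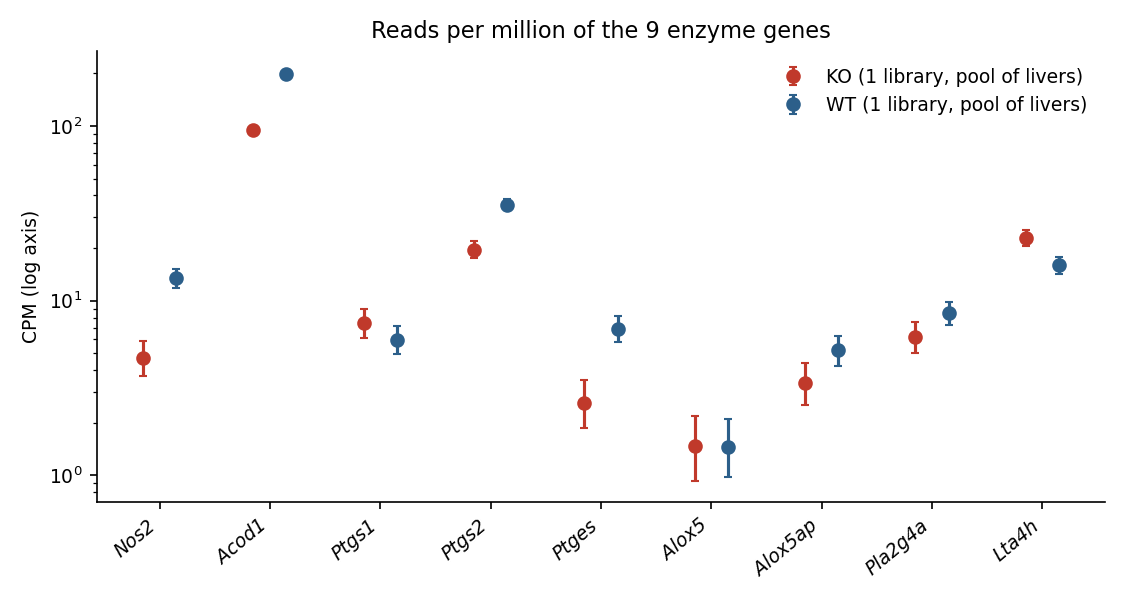
CPM (log axis) of each enzyme gene in the KO library (red, left of each pair) and the WT library (blue, right), with exact 95% Poisson intervals that cover counting error only. Acod1 is the highest gene in both libraries, at 95.04 CPM in KO and 199.6 CPM in WT, and Lta4h and Ptgs1 are the members with a higher point in KO beyond rounding.

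Nos2 (ENSMUSG00000020826, GRCm38 chromosome 11, 78920787 to 78960254) had 74 reads in KO and 267 in WT, or 4.70 CPM in KO and 13.4 CPM in WT. This was the lowest ratio among the members, 2.86-fold lower in KO with an interval from 2.20 to 3.75. Of all measured genes, 5.63% had a lower ratio. Its FPKM was 1.06 in KO and 3.05 in WT.

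Acod1 (ENSMUSG00000022126, chromosome 14, 103046977 to 103056573) was the most abundant member per length, with 36.2 FPKM in KO and 76.1 FPKM in WT. It had 1497 reads in KO and 3965 in WT, the deepest counts of the set, and was 2.10-fold lower in KO (1.98 to 2.23). Its interval reaches below 2-fold, and when library totals left out the 50 most abundant genes the ratio was 0.512, short of 2-fold. That scaling raised the log2 ratio of every gene by 0.105.

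Pla2g4a (ENSMUSG00000056220, chromosome 1, 149829618 to 149961290) encodes cytosolic phospholipase A2 alpha, which frees arachidonic acid. It had 97 reads in KO and 168 in WT and was 1.37-fold lower in KO (1.06 to 1.78). The interval lies close to 1 at its near end.

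The cyclooxygenase genes lay on opposite sides of 1. Ptgs2 (ENSMUSG00000032487, chromosome 1, 150100031 to 150108227), the inducible form, had 308 reads in KO and 705 in WT, or 19.6 CPM in KO and 35.5 CPM in WT. It was 1.81-fold lower in KO (1.59 to 2.08). Ptgs1 (ENSMUSG00000047250, chromosome 2, 36230426 to 36252272), the constitutive form, had 117 reads in KO and 118 in WT, and with the shallower KO library its ratio was 1.25 (0.960 to 1.63), an interval that includes 1. The intervals of the 2 genes did not overlap. Ptgs1 shares 148 exonic bases with Gm43621 on the other strand, which had 0 reads in both libraries.

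Ptges (ENSMUSG00000050737, chromosome 2, 30889471 to 30929863) encodes the inducible microsomal prostaglandin E synthase, which acts after cyclooxygenase 2. It had 41 reads in KO and 137 in WT, or 2.60 CPM in KO and 6.90 CPM in WT. It was 2.65-fold lower in KO (1.86 to 3.85), the second lowest ratio of the set.

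The leukotriene genes were not uniform. Alox5ap (ENSMUSG00000060063, chromosome 5, 149264767 to 149288153) encodes the protein that presents arachidonic acid to 5-lipoxygenase. It had 53 reads in KO and 103 in WT and was 1.54-fold lower in KO (1.10 to 2.19). It shares 189 exonic bases with the antisense gene Gm19719, which had 5 reads in KO and 6 in WT, and the strand setting of the counting is not given in the sources used here.

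Alox5 (ENSMUSG00000025701, chromosome 6, 116410077 to 116461178), 5-lipoxygenase itself, was the least abundant member. It had 23 reads in KO and 29 in WT, both 1.46 CPM. The ratio lay at 1 with an interval from 0.553 to 1.79, so a difference within that range was not detectable at this depth. Lta4h (ENSMUSG00000015889, chromosome 10, 93453411 to 93484875) encodes leukotriene A4 hydrolase, which makes leukotriene B4, a neutrophil attractant. It had 360 reads in KO and 316 in WT, or 22.9 CPM in KO and 15.9 CPM in WT, and was the 1 member whose whole interval lay above 1, at 1.44-fold higher in KO (1.23 to 1.68). Of all measured genes, 82.4% had a lower ratio.

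**Figure D2:**
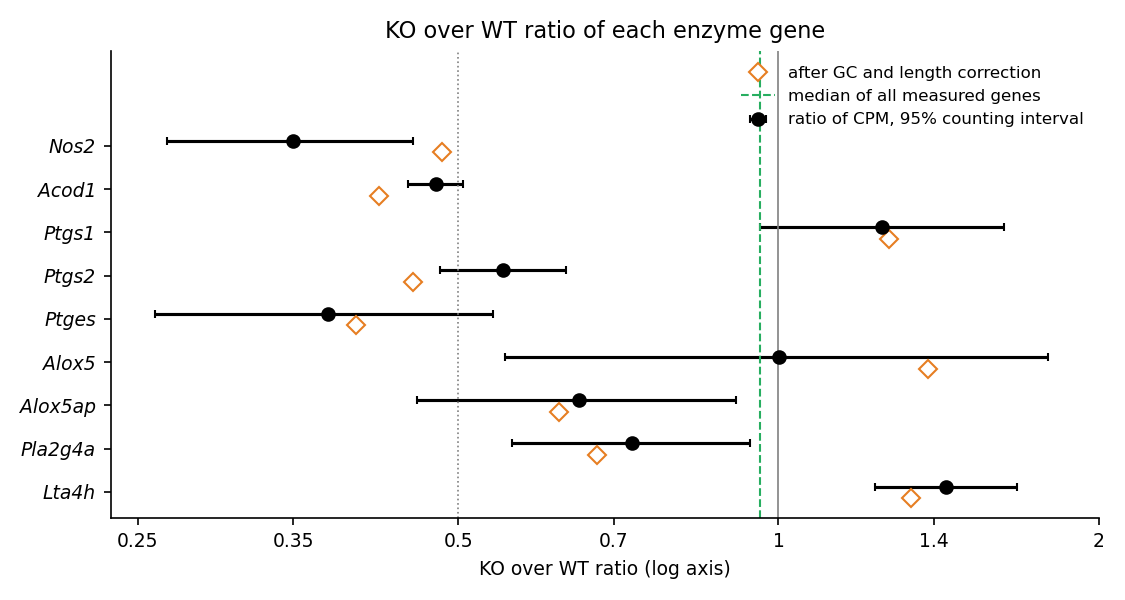
KO over WT ratio of CPM (log axis) for each enzyme gene, with 95% counting intervals as black bars and the value after correction for GC content and length as open orange diamonds. Solid, dotted and dashed lines stand at 1, at 0.5 and at the median of all measured genes, 0.960; the intervals of Nos2, Acod1, Ptgs2, Ptges, Alox5ap and Pla2g4a lie below 1 and that of Lta4h above it.

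The order of levels per length differed between the libraries. In KO it ran, in FPKM, from Acod1 at 36.2 through Ptgs2 at 4.27, Lta4h at 3.75, Alox5ap at 2.37, Ptgs1 at 1.91, Nos2 at 1.06, Pla2g4a at 0.964 and Ptges at 0.662 to Alox5 at 0.356. In WT it ran from Acod1 at 76.1 through Ptgs2 at 7.75, Alox5ap at 3.65, Nos2 at 3.05, Lta4h at 2.61, Ptges at 1.75, Ptgs1 at 1.53 and Pla2g4a at 1.32 to Alox5 at 0.356. Nos2 was the sixth in KO and the fourth in WT. In KO, the counting intervals of Ptgs2 and Lta4h overlapped, as did those of Alox5ap and Ptgs1, Nos2 and Pla2g4a, Pla2g4a and Ptges, and Ptges and Alox5. In WT, those of Alox5ap and Nos2, Nos2 and Lta4h, Ptges and Ptgs1, and Ptgs1 and Pla2g4a overlapped. The lengths come from the annotation used here, and the annotation behind the deposited counts is not known to be the same.

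Across all genes the KO over WT ratio went with GC content. Among genes with 100 reads or more, split into 10 GC bins of like size, the median log2 ratio was 0.28 in the lowest bin and -0.86 in the highest. The members span GC contents from 40.02% for Ptgs2 to 53.9% for Nos2. Subtracting the median of genes of like GC content and length left 4 members at least 2-fold lower, Nos2, Acod1, Ptgs2 and Ptges, against 8.25% of all genes treated in the same way, and none at least 2-fold higher, against 7.05%. With the correction Nos2 was 2.07-fold lower in KO, less than the 2.86-fold without it, whereas Ptgs2 was 2.21-fold and Acod1 2.37-fold lower, more than without it. Ptges was 2.49-fold lower. Lta4h was at 1.33, Ptgs1 at 1.27 and Alox5 at 1.38 after the correction. Within its own GC bin, Ptgs2 had 4.91% of measured genes below its ratio, Ptges 5.62%, Nos2 6.12% and Acod1 6.40%.

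**Figure D3:**
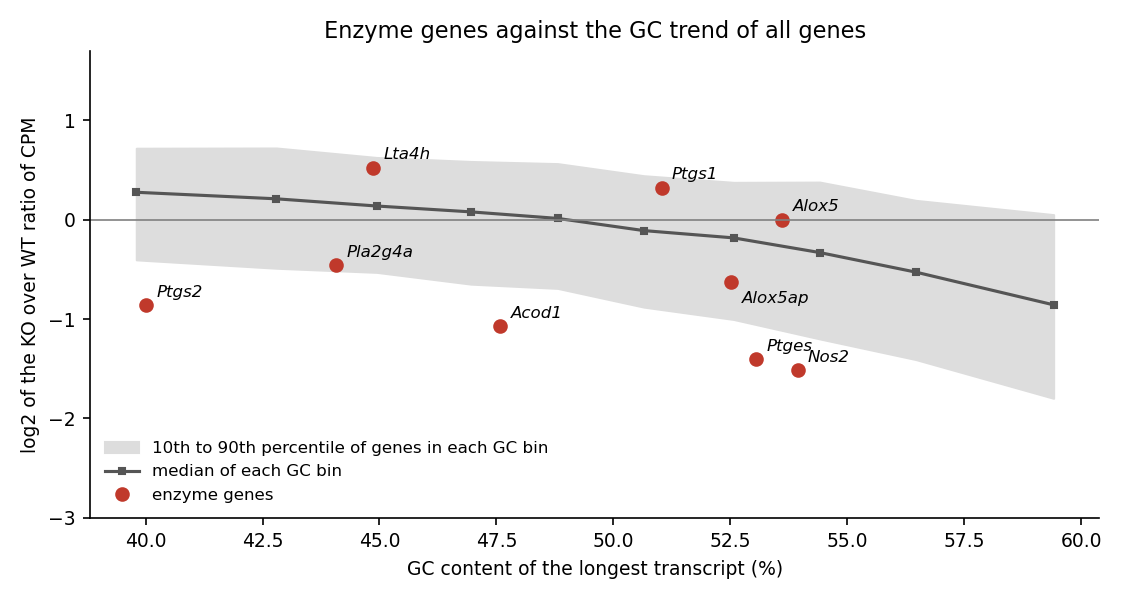
Log2 of the KO over WT ratio of CPM against GC content of the longest transcript in percent. Red points are the enzyme genes, the grey line joins the medians of 10 GC bins of genes with 100 reads or more, and the grey band spans their 10th to 90th percentiles; Nos2, Ptges, Acod1 and Ptgs2 lie under the band, and Lta4h lies inside it near its upper edge.

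Most other measured genes of the same pathways lay within 2-fold. Of 109 listed genes, 107 were found and 93 had 10 reads or more. Of these, 7 (7.53%) were at least 2-fold lower in KO and 4 (4.30%) at least 2-fold higher, both under the 13.3% and 6.86% of all measured genes, and their median ratio was 1.04.

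In the nitric oxide list, 1 of 21 measured genes was at least 2-fold lower and 1 at least 2-fold higher, with a median ratio of 1.05. Ddah2, which breaks down a natural inhibitor of the synthases, was 2.17-fold lower in KO (1.60 to 2.96), and at a log2 ratio of -0.68 after the GC and length correction, short of 2-fold. Nostrin, which binds the endothelial synthase, was 2.09-fold higher (1.68 to 2.61) on 224 reads in KO and 135 in WT, and 1.81-fold higher after the correction. Nos3, the endothelial synthase, was 1.94-fold lower (1.55 to 2.43), yet at a log2 ratio of 0.06 after it. Gch1, the first enzyme of the synthases' cofactor tetrahydrobiopterin, was 1.31-fold lower (1.24 to 1.39).

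Genes that supply or compete for arginine did not share a direction. Ass1, which regenerates arginine from citrulline and is abundant in hepatocytes, had 3167 CPM in KO and 2437 CPM in WT, a ratio of 1.30 (1.28 to 1.32). Arg1, the hepatocyte arginase, had a ratio of 1.24 (1.21 to 1.26). Arg2, with 40 reads in KO and 74 in WT, had a ratio of 0.682 (0.452 to 1.01). The arginine transporter gene Slc7a2 had a ratio of 1.09 (1.04 to 1.15), and of 0.949 after the correction. The guanylate cyclase subunit gene Gucy1a1, whose product senses nitric oxide, was 1.84-fold higher (1.38 to 2.46).

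The itaconate list, citric acid cycle enzymes around cis-aconitate and the enzymes that use itaconate, had none of 19 measured genes past 2-fold either way and a median ratio of 1.19. Sdha, a subunit of succinate dehydrogenase, had a ratio of 1.19 (1.16 to 1.22), and Idh3a one of 1.60 (1.37 to 1.86). Clybl, which breaks down a product of itaconate, had a ratio of 1.43 (1.27 to 1.61), and Sugct, which can attach coenzyme A to itaconate, one of 0.967 (0.869 to 1.08). At the lower end, Rab32, a GTPase linked to itaconate delivery, was 1.39-fold lower (1.24 to 1.55), and the citrate carrier gene Slc25a1 was 1.12-fold lower (1.07 to 1.17). After the GC and length correction Slc25a1 lay on the other side of 1, at a ratio of 1.49. The itaconate receptor gene Oxgr1 had 0 reads in both libraries.

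**Figure D4:**
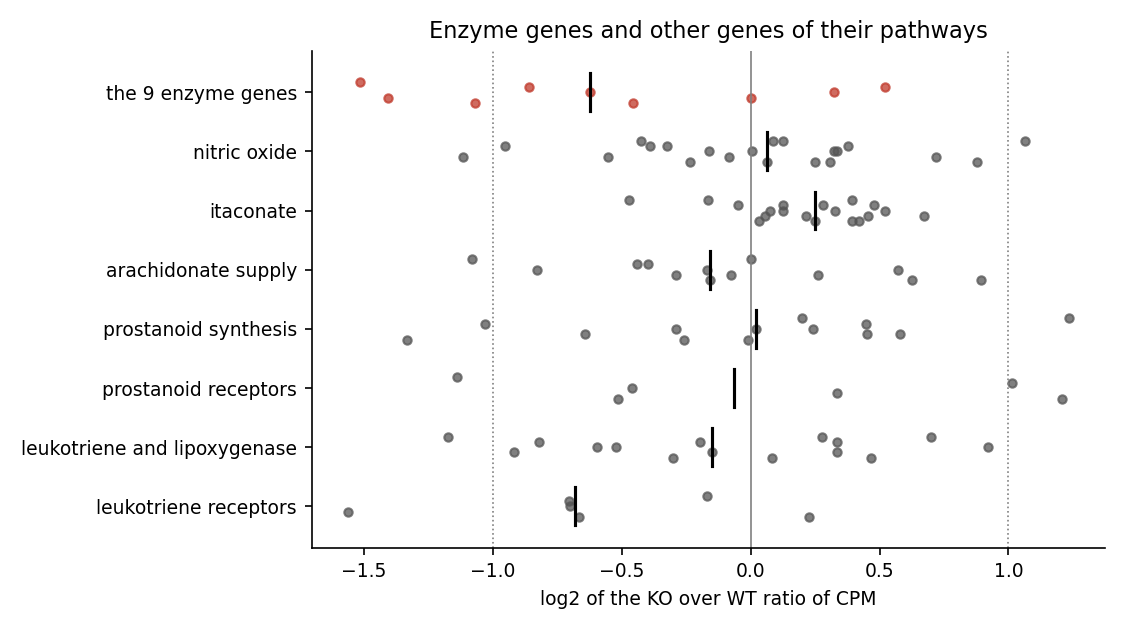
Log2 of the KO over WT ratio of CPM for the 9 enzyme genes (red, top) and for other measured genes of their pathways (grey, 1 row per list, points spread vertically for legibility). Black bars are list medians and dotted lines mark 2-fold. The members reach further to the left than the itaconate list, which has no gene past 2-fold. The leukotriene receptor list reaches further left than the members, to a ratio of 0.338 for Cysltr2.

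Of the arachidonate supply list, 1 of 13 measured genes was at least 2-fold lower, Pla2g4c on 3 reads in KO and 8 in WT, and none higher. Acsl4, which activates arachidonic acid for storage in lipids, was 1.86-fold higher in KO (1.71 to 2.02), and Lpcat3, which puts it into phospholipids, was 1.48-fold higher (1.36 to 1.62). Pla2g15, a lysosomal phospholipase, was 1.78-fold lower (1.503 to 2.11), and Mboat7, which attaches arachidonic acid to phosphatidylinositol, was 1.36-fold lower (1.23 to 1.505). Mgll, a lipase that supplies arachidonic acid in liver, had 109 CPM in both libraries. Pla2g6, a calcium-independent phospholipase A2, and Pla2g7, which degrades platelet-activating factor, had ratios of 0.818 (0.736 to 0.908) and 0.888 (0.757 to 1.04). The corrected ratio of Pla2g6 was 1.93, on the other side of 1.

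Among 13 measured prostanoid synthesis and clearance genes, 2 were at least 2-fold lower and 1 at least 2-fold higher. Ptgds, a prostaglandin D synthase, was 2.52-fold lower in KO (1.75 to 3.69) on 40 reads in KO and 127 in WT. Ptgis, prostacyclin synthase, was 2.04-fold lower (1.64 to 2.57), at a log2 ratio of -0.66 after the correction. Slco2a1, the prostaglandin transporter, was 1.49-fold higher (1.402 to 1.59), Hpgd, the dehydrogenase that starts prostaglandin breakdown, 1.36-fold higher (1.23 to 1.51), and Ptgr1, a reductase of prostaglandins and leukotriene B4, 2.35-fold higher (1.699 to 3.28) on 110 reads in KO and 59 in WT. Ptgr2, another prostaglandin reductase gene, had a ratio of 0.992 (0.884 to 1.11). Ptges3, the constitutive cytosolic prostaglandin E synthase, had a ratio of 1.18 (1.07 to 1.30), and of 0.999 after the correction. Tbxas1 and Hpgds, the thromboxane and haematopoietic prostaglandin D synthases, had intervals that include 1, with ratios of 0.818 (0.557 to 1.19) and 1.15 (0.675 to 1.94).

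Prostanoid receptor genes were scarce. Of 6 measured, 1 was at least 2-fold lower and 2 at least 2-fold higher. The lower one was Ptgir, the prostacyclin receptor, at 2.20-fold (1.55 to 3.17) on 45 reads in KO and 125 in WT, and 1.95-fold lower after the correction. The higher ones, Ptgfr with 8 reads in KO and 5 in WT and Tbxa2r with 11 in KO and 6 in WT, rest on few reads. The prostaglandin E2 receptor genes Ptger2 and Ptger4 were 1.43-fold (1.02 to 2.02) and 1.38-fold (1.01 to 1.88) lower.

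Of 15 measured leukotriene and lipoxygenase genes, 1 was at least 2-fold lower, Cotl1, which binds 5-lipoxygenase and actin, at 2.26-fold (2.08 to 2.45), and 1.67-fold lower after the GC and length correction. None was 2-fold higher. Ephx2, the soluble epoxide hydrolase of hepatocytes, was 1.38-fold higher (1.34 to 1.42), the microsomal glutathione transferase gene Mgst3 1.63-fold higher (1.31 to 2.03), and Ggt5, which converts leukotriene C4, 1.51-fold lower (1.23 to 1.87). Ltc4s, leukotriene C4 synthase, had 0 reads in KO and 1 in WT, under the floor in both. Among 6 measured leukotriene and related lipid mediator receptor genes, 1 was at least 2-fold lower, Cysltr2 on 11 reads in KO and 41 in WT, at 2.96-fold (1.49 to 6.38). Fpr2, a formyl peptide and lipoxin receptor of neutrophils and macrophages, was 1.63-fold lower (1.48 to 1.80), whereas the leukotriene B4 receptor genes Ltb4r1 and Ltb4r2 had ratios of 0.890 (0.602 to 1.31) and 1.17 (0.660 to 2.07). The corrected ratio of Ltb4r1 was 1.21. Cysltr1 had 7 reads in KO and 14 in WT.

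Markers of immune cell types differed as well. All 12 Kupffer cell and macrophage markers were below 1, against 53.4% of all measured genes, with summed levels of 643 CPM in KO and 1548 CPM in WT. Of these 12, 6 were at least 2-fold lower, against 13.3% of all measured genes. Clec4f, a lectin of Kupffer cells, was 2.26-fold lower (2.12 to 2.40), the scavenger receptor gene Marco 3.41-fold and Adgre1, a macrophage adhesion receptor, 1.58-fold. The part of these markers in the lower levels of Nos2, Acod1, Ptgs2 and Ptges was not tested. Of the T and NK cell markers, 5 of 9 were at least 2-fold lower, against the same 13.3%, with sums of 33.1 CPM in KO and 72.3 CPM in WT. The highest marker in each of these sums was at 19.2 CPM in KO and 46.9 CPM in WT.

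Of 12 measured neutrophil markers, 9 had a ratio below 1 and 3 were at least 2-fold lower, against 53.4% and 13.3% of all measured genes. None was 2-fold higher, and the median ratio was 0.697, with sums of 342 CPM in KO and 435 CPM in WT. S100a8 had 103 CPM in KO and 98.8 CPM in WT, and the defining marker Ly6g had 15 reads in KO and 20 in WT. Csf3r, the receptor gene for granulocyte colony-stimulating factor, was 2.19-fold lower on 803 reads in KO and 2220 in WT, and 1.94-fold lower after the GC and length correction. The chemokine receptor gene Cxcr2 was 1.83-fold lower, and 2.11-fold lower after the correction. Both were named after their values were seen. The other markers at least 2-fold lower rest on few reads, Camp on 3 in KO and 12 in WT and Ltf on 13 in KO and 36 in WT. None of 6 measured monocyte markers passed 2-fold. Their sums, 579 CPM in KO and 548 CPM in WT, were mostly F10, a coagulation factor gene that hepatocytes express, and Ccr2 had a ratio of 1.03. S100a4 in that list had 0 reads in both.

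Of the platelet markers none of 7 passed 2-fold, with sums of 98.2 CPM in KO and 143 CPM in WT and a median ratio of 0.998. Of 8 mast cell and basophil markers only Kit, which other cells share, reached 10 reads, and Fcer1a had 0 reads in both libraries. No endothelial marker of 8 passed 2-fold, with sums of 561 CPM in KO and 684 CPM in WT, and 1 of 7 stellate cell markers did, with sums of 779 CPM in KO and 831 CPM in WT. B cell markers summed to 17.2 CPM in KO and 27.5 CPM in WT, with 1 of 5 at least 2-fold lower. The 1 stellate cell and 1 B cell marker stand beside 13.3% of all measured genes at least 2-fold lower. Hepatocyte markers, which check the labelled tissue, summed to 96071 CPM in KO and 61589 CPM in WT with none of 8 past 2-fold. Cholangiocyte markers had 3 of 7 at least 2-fold higher, against 6.86% of all measured genes, and sums of 239 CPM in KO and 149 CPM in WT. Of 7 pancreatic acinar markers, 3 had 0 reads in both, and Ctrb1 had 297 reads in KO and 0 in WT. Acinar sums were 40.3 CPM in KO and 26.6 CPM in WT, but 1 marker alone gave 26.2 CPM of the WT sum. The highest acinar marker in KO was at 20.8 CPM. Among the 3 measured acinar markers, 1 had a ratio below 1, at 0.794.

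**Figure D5:**
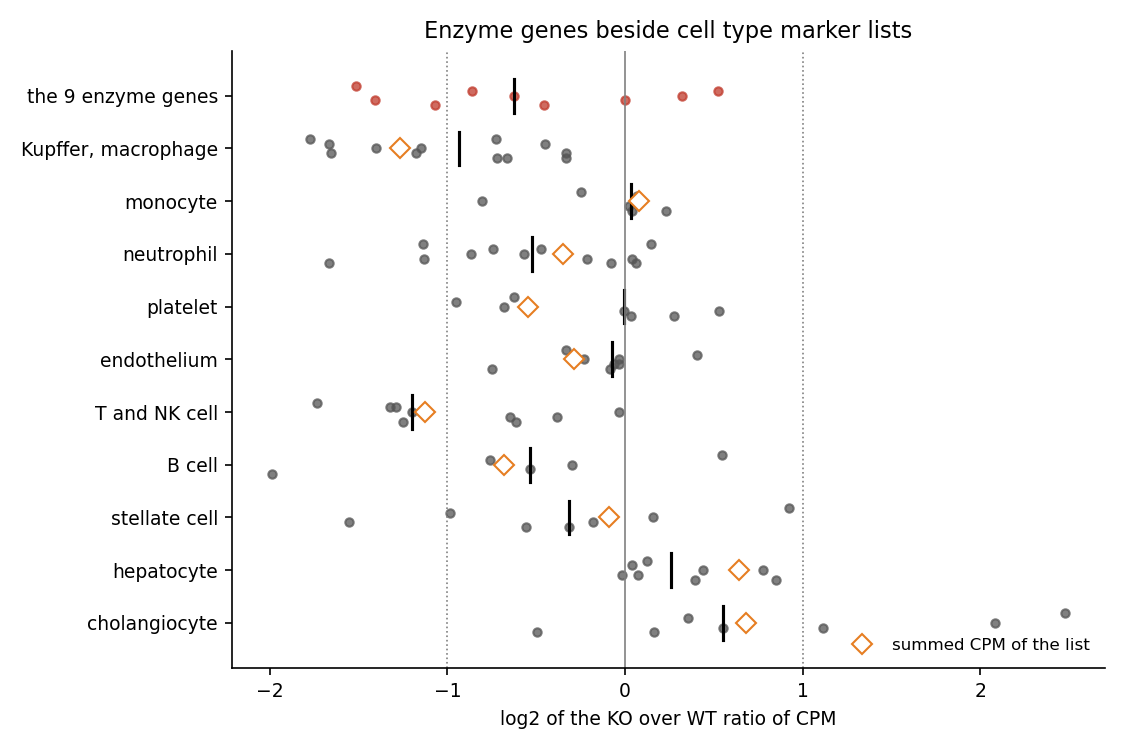
Log2 of the KO over WT ratio of CPM for the 9 enzyme genes (red, top) and for measured marker genes of 10 cell types (grey). Black bars are list medians, open orange diamonds the ratio of the summed CPM of each list, and dotted lines mark 2-fold; the Kupffer cell and macrophage list lies wholly below 0, with its sum at a ratio of 0.416.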

How the data were processed

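The file names say FPKM, but all values are whole numbers whose totals differ between libraries, so they were taken as the raw read counts that the authors deposited. The submitters' processing notes name TopHat2, version 0.6.1 of HTSeq and the build GRCm38. The annotation, strand and filter settings of the counting are not given in these sources. The 209 rows that name no Ensembl gene (0.496% of reads in KO, 0.652% in WT) were left out. CPM used totals over all Ensembl rows, and FPKM the union of exons in GENCODE release M21. Ratios are CPM in KO over CPM in WT with no pseudocount. Their 95% intervals are exact (Clopper-Pearson), given each gene's reads summed over both libraries. Reads are not independent molecules, so intervals and floors (3 reads) cover counting error only. A gene was measured at 10 reads or more over both libraries, and called at 2-fold, a rule of size and no test.

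The members and gene lists were chosen with earlier results of these data known, and the motif letters and gene pairs after the sequences and values had been seen. Of 217 listed symbols, 2 were not found. Named pathway genes are the 2 highest and 2 lowest of each list at 50 reads or more plus set representatives, of which 1 is left out of the text; others were named after their values were seen. The GC and length correction subtracted medians of 10 by 4 bins of genes with 100 reads or more. Python 3.11.15, numpy 2.4.6, pandas 2.3.3 and scipy 1.17.1 were used, and edgeR 4.0.16 gave the TMM factors. The CPM ratios, their intervals, the 2-fold calls and the GC correction without length were first tested on simulated counts. The other steps were not.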

Additional observations from a re-analysis of the deposited data

How the results depend on the processing

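Median-ratio, TMM, protein-coding and mitochondria-free totals kept every member on its side of 1 and of 2-fold. Leaving the 50 most abundant genes out of the totals left 2 members at least 2-fold lower, without Acod1, against 11.3% of all measured genes. The corrections for GC content, with and without length, each gave 4 members 2-fold lower, Ptgs2 being added. Adding 1 to FPKM gave 1 member, Acod1, with Nos2 at 0.510 and Ptges at 0.603; that scale shrinks differences of low genes by construction. Of the pathway genes, 7 were 2-fold lower and 4 higher, and this became 3 lower with the GC and length correction, 2 lower with the GC correction, and 1 lower and 0 higher with 1 added to FPKM. Without a filter 12 were lower, and at 50 reads or more 2 were higher.

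The share of all genes at least 2-fold lower became 8.25% with the GC and length correction, 8.16% with the GC correction, 4.40% with 1 added to FPKM and 19.997% without a filter. The share at least 2-fold higher became 0.810% with 1 added to FPKM, 19.8% without a filter and 2.69% at 50 reads or more. Depth limits Alox5 most. No paired analysis was possible because each genotype has 1 library.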

Other observations

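Ratios between genes of the same library do not depend on library scaling. The pairs here were chosen after the values of the single genes had been seen, and the intervals, exact conditional 95% intervals of the odds ratio, cover counting error only. Per length, Ptgs2 was at 2.23 times the level of Ptgs1 in KO and 5.07 times in WT, so this balance was 2.27-fold lower in KO (1.68 to 3.06). Ptges relative to the prostaglandin-degrading gene Hpgd was 3.61-fold lower (2.49 to 5.33), and relative to Ptges2, another prostaglandin E synthase, 1.696-fold lower (1.16 to 2.53). After the GC and length correction Ptges was 2.81-fold lower relative to Hpgd and 2.21-fold lower relative to Ptges2. Nos2 relative to Arg1, which uses the same substrate, was 3.54-fold lower (2.73 to 4.65), but 2.27-fold lower after the GC and length correction. Relative to its cofactor gene Gch1 it was 2.18-fold lower (1.67 to 2.88), and relative to Nos3, another synthase gene that was itself lower in KO, 1.48-fold lower (1.04 to 2.10). After the correction Nos2 was 1.46-fold lower relative to Gch1 and 2.16-fold lower relative to Nos3. Alox5ap relative to Lta4h was 2.21-fold lower (1.52 to 3.25).

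Set against markers of the cells that make these mediators, the KO over WT value of a member depended on the marker. Over the 12 measured Kupffer cell and macrophage markers, the value per read of marker ran from 0.5996 with Vsig4 to 1.63 with Marco for Acod1, with a median of 0.921. For Nos2 it ran from 0.440 to 1.19 (median 0.676), for Ptgs2 from 0.694 to 1.88 (median 1.07) and for Ptges from 0.475 to 1.29 (median 0.730), between the same markers. As an example, per read of Clec4f, KO over WT values were 1.07 for Acod1 (0.986 to 1.17), 0.789 for Nos2 (0.597 to 1.03), 0.852 for Ptges (0.583 to 1.22) and 1.24 for Ptgs2 (1.07 to 1.44). After the GC and length correction they were 0.896 for Acod1, 1.03 for Nos2, 0.852 for Ptges and 0.963 for Ptgs2. Acod1, Nos2 and Ptgs2 thus changed sides of 1. Per read of Adgre1, Acod1 was 1.33-fold lower (1.19 to 1.47). Over the 12 measured neutrophil markers, the value ran from 0.4298 with Retnlg to 1.51 with Camp for Acod1 (median 0.684). For Alox5ap it ran from 0.586 to 2.06 (median 0.932), and for Alox5 from 0.903 to 3.17 (median 1.44), between the same markers. Camp had 3 reads in KO and 12 in WT. The part of cell numbers in these values was not tested.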
